A study of Mus musculus with 10 samples.

Results

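The genes described here are 9 genes of the complement system, taken from the deposited count table by their symbols out of 24015 genes. They are the C1q chains C1qa, C1qb and C1qc, the central component C3, the anaphylatoxin receptors C3ar1 and C5ar1, properdin (Cfp), factor B (Cfb) and the regulator Cd55. All 9 were in the table, and all 9 were among the 12971 genes with enough reads to be tested. RNA was sequenced from MAF9 cells, bone marrow cells of C57BL/6 genotype that were transduced with MLL-AF9, the fusion oncogene that every library carries, controls included. The culture medium held fetal bovine serum (15%) and interleukin-3 (10 ng/ml), and the cells were exposed for 4 days to DMSO as the control, to MM-401 (labelled MM401), which targets the contact of MLL1 with WDR5, to EPZ5676 (labelled EPZ), which targets the methyltransferase DOT1L, to MI-2-2 (labelled MI), which targets MENIN, or to iBET. Each inhibitor was given at its own growth-inhibition dose (GI50, also written as IC50 in the study), with concentrations not stated in the labels. Each of the 5 groups had 2 libraries, labelled as biological duplicates, 10 in all, with 20394762 to 29473127 counted reads per library. The animals or transductions behind the cultures are not stated, so p-values measure the spread between these libraries only.

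Complement is a cascade of plasma proteins. C1q opens the classical pathway by binding antibody or other surface ligands, factor B and properdin build and stabilise the convertase of the alternative pathway, and both pathways meet at C3. Cleavage of C3 and C5 releases C3a and C5a, which signal through the G protein-coupled receptors C3ar1 and C5ar1 on myeloid cells, and Cd55 speeds the decay of the convertases on the cell's own surface. C1q is made largely by macrophages and dendritic cells, while most plasma C3 comes from the liver and a smaller part from myeloid cells.

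The promoter windows of 5 of these genes are shown. All 7 genes with a window rose with EPZ5676 and MI-2-2 in the results that follow, and the windows of Cfp and Cd55 are not printed. They are taken from RefSeq for the mouse build GRCm38.p6, from 250 bases before to 50 bases after the start of the gene, and read 5′ to 3′ along the gene's strand. The table held windows for 7 of the 9 genes, and C1qa and Cfb had none. Capitals mark matches, on either strand, to GAGGAA (a letter string of the kind bound by ETS factors such as PU.1), TGANTCA (AP-1 type) or TTGCNNAA (C/EBP type), where N is any base. No match overlapped another in these windows.
C1qb (chr4:136886151-136886450, minus strand): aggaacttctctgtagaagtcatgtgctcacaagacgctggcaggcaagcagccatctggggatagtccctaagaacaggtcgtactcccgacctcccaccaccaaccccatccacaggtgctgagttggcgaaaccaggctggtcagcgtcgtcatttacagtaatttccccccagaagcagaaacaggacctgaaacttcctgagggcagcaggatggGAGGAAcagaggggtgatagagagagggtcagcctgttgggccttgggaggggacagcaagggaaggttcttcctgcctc
C1qc (chr4:136892865-136893164, minus strand): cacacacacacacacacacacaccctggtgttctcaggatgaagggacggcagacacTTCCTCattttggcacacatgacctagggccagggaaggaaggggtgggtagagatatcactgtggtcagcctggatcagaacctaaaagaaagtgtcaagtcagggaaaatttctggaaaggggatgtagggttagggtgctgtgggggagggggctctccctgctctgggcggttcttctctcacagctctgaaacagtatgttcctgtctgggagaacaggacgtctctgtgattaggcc
C3 (chr17:57228087-57228386, minus strand): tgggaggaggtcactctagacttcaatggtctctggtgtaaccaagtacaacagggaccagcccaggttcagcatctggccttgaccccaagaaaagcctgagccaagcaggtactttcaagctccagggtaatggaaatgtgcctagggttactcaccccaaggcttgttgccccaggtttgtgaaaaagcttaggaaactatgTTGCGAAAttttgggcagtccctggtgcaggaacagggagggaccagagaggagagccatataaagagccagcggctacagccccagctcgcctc
C3ar1 (chr6:122856108-122856407, minus strand): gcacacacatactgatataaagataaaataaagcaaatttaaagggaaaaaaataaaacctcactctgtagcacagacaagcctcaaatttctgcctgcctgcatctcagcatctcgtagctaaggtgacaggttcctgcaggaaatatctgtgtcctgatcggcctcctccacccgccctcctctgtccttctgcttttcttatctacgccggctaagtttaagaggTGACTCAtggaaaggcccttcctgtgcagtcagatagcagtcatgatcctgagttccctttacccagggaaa
C5ar1 (chr7:16259289-16259588, minus strand): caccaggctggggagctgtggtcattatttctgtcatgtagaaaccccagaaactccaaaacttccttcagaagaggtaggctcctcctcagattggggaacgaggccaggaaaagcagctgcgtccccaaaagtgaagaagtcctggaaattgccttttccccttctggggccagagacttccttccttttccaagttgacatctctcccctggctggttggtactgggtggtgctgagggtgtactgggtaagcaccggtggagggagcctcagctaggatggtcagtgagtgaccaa

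C1qb and C1qc each held 1 GAGGAA match, C3 held 1 TTGCNNAA match, C3ar1 held 1 TGANTCA match, and the window of C5ar1 held none of these letter strings. Of the windows not shown, that of Cfp held 2 GAGGAA matches and that of Cd55 held none of the strings. Over all 32851 windows of 300 bases in the table, 28.3% held GAGGAA, 7.81% held TGANTCA and 10.8% held TTGCNNAA, so that 3, 1 and 1 of the 7 windows is no more than a description of their sequence. In the same assembly C1qb, C1qc and C1qa lie next to each other on chromosome 4, and C5ar1 lies next to C5ar2, the other C5a receptor, on chromosome 7. Cd55 lies next to a near copy, listed in the table as Daf2, which had 0 reads in all 10 libraries. How reads that match both copies were counted is not given in the sources used here.

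One control library stood apart and enters each comparison with DMSO. DMSO replicate 2 had 3630 reads on 4 Y-linked genes, against 0 to 2 in each of the other 9 libraries. It had 4.65 CPM (reads per 1000000 of the library) of Xist, the RNA of the inactive X chromosome, against 1026 to 2817. By these genes its cells were male and those of the other 9 libraries female, so the libraries did not all come from 1 animal. No inhibitor library matches this control in sex. The DMSO libraries differed by more than 2-fold in 16.3% of the tested genes whose mean there was 1 CPM or higher, a share that was 1.59% to 4.53% within the inhibitor groups. Results against DMSO are given with both control libraries, and several that turn on 1 of them also without it. Cfp is on the X chromosome. Values are CPM scaled by the trimmed mean of M values (TMM), and a gene is called where the adjusted p of edgeR's quasi-likelihood test is below 0.05.

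**Figure D1:**
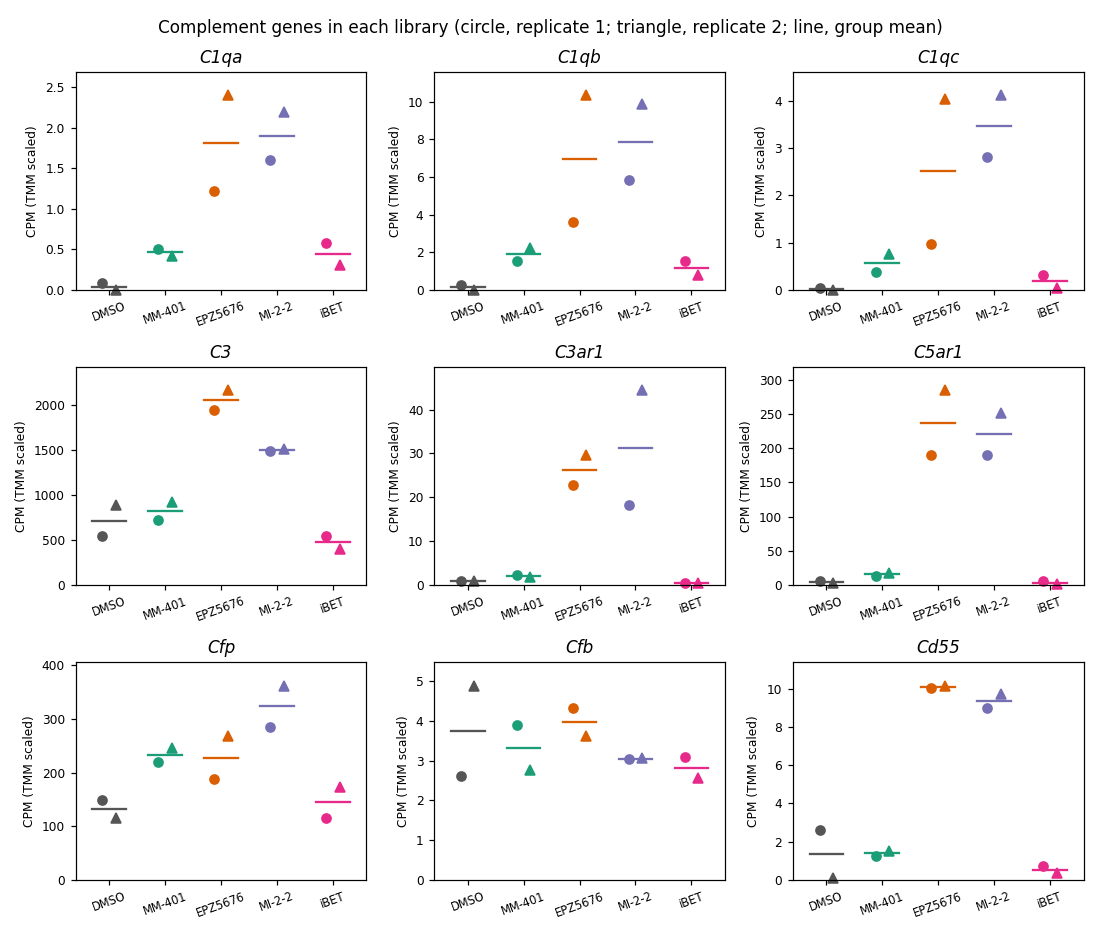
TMM-scaled CPM (y axis, linear, from 0, a separate scale for each gene) of the 9 complement genes in each of the 10 libraries, by group (x axis), with circles for replicate 1, triangles for replicate 2 and lines for group means. For all genes but Cfb, both EPZ5676 libraries and both MI-2-2 libraries lie above both DMSO libraries.

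With EPZ5676, 8 of the 9 genes rose against DMSO and 1, Cfb, was not called. With MI-2-2 the count was again 8, without Cfb. Over all genes tested, edgeR called 38.1% in either direction for EPZ5676 (18.7% higher) and 41.4% for MI-2-2 (20.2% higher). The median log2 fold change of the 9 genes was 5.07 with EPZ5676 and 5.32 with MI-2-2, beside -0.06 and -0.05 over all genes tested. The MI-2-2 median is the fitted value of C1qa. C1qa, C1qb and C1qc had only 2, 6 and 1 reads in DMSO and passed the read filter through inhibitor libraries. These counts and medians are therefore a description of the genes. With both inhibitors the libraries of 8 of the 9 genes did not overlap those of DMSO, which was so for 64.7% of all genes with EPZ5676 and for 67.9% with MI-2-2. Both comparisons use the same DMSO libraries.

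**Figure D2:**
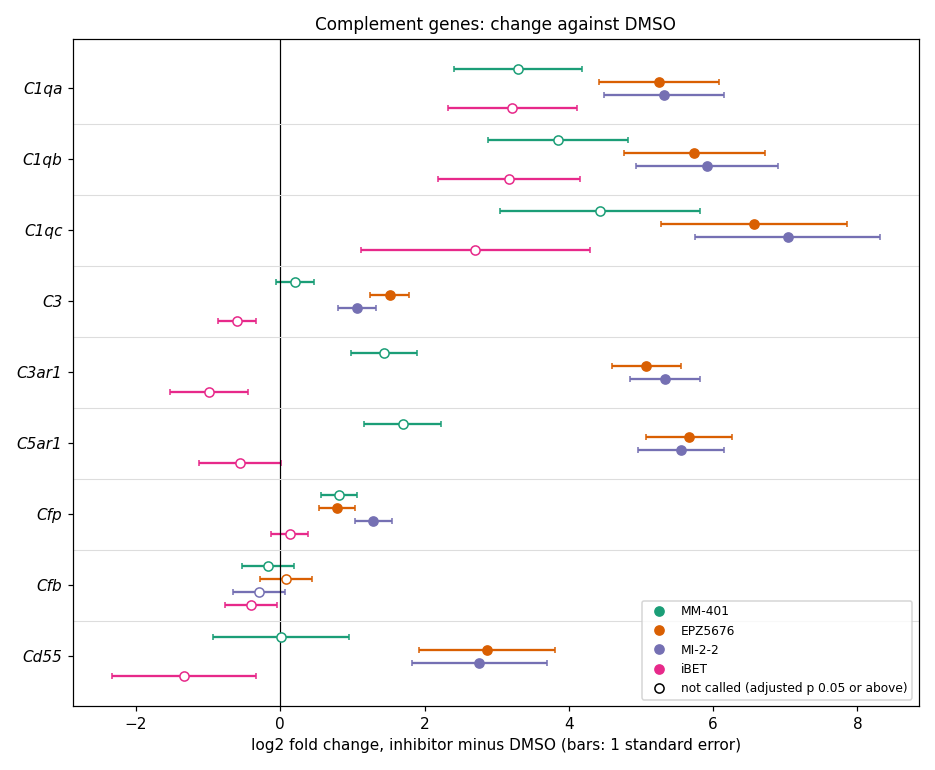
Log2 fold change of each complement gene for each inhibitor minus DMSO (x axis), with bars of 1 standard error and open circles where the adjusted p was 0.05 or above. EPZ5676 and MI-2-2 have filled circles to the right of 0 for 8 genes, and all circles of MM-401 and iBET are open.

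The C1q chains were almost without reads in DMSO and were counted in every library with EPZ5676 and MI-2-2. C1qa, the A chain, had 2 and 0 reads in the DMSO libraries, 12 and 10 with MM-401, 25 and 51 with EPZ5676, 37 and 60 with MI-2-2, and 13 and 8 with iBET. C1qb, the B chain, had 6 and 0 reads in DMSO, 36 and 53 with MM-401, 74 and 220 with EPZ5676, 135 and 271 with MI-2-2, and 35 and 21 with iBET. C1qc, the C chain, had 1 and 0 reads in DMSO, 9 and 18 with MM-401, 20 and 86 with EPZ5676, 65 and 113 with MI-2-2, and 7 and 1 with iBET. Every EPZ5676 and MI-2-2 library was above every DMSO, MM-401 and iBET library for all 3 chains. The gap was narrow for C1qc, at 20 reads in EPZ5676 replicate 1 and 18 in MM-401 replicate 2. Against MM-401, 9773 of the 12971 genes tested did not overlap with EPZ5676, and 10134 did not with MI-2-2. In DMSO replicate 2 the 3 chains had no read, which allows up to 3 reads or 0.144 CPM for each.

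The summed level of the 3 chains was 0.35 CPM in DMSO replicate 1, 5.77 and 16.8 with EPZ5676 and 10.3 and 16.2 with MI-2-2. It was 2.41 and 3.40 with MM-401 and 2.43 and 1.15 with iBET. The EPZ5676 libraries thus differed from each other by more than the MI-2-2 libraries did, and the sum was a small part of each library. For C1qb the log2 fold change was 5.74 with EPZ5676 (standard error 0.98, adjusted p = 0.00366, edgeR) and 5.92 with MI-2-2 (standard error 0.98, adjusted p = 0.00305, edgeR). C1qa and C1qc had 3 reads or fewer in DMSO, so their ratios are given with an exact 95% interval that covers counting error only. C1qa was 42.3 times higher with EPZ5676 (interval 11.3 to 355, adjusted p = 0.00276, edgeR) and 44.7 times higher with MI-2-2 (12.1 to 375, adjusted p = 0.00241, edgeR). C1qc was 118 times higher with EPZ5676 (interval 20.7 to 4699, adjusted p = 0.00645, edgeR) and 164 times higher with MI-2-2 (29.1 to 6523, adjusted p = 0.00442, edgeR). All 6 calls held when any 1 library of the comparison was left out, though without DMSO replicate 1 the control had no C1q read and the fitted values give no measure of size. With any 1 of the other libraries left out, the fitted log2 fold change with EPZ5676 ran from 4.47 (without DMSO replicate 2) to 5.67 for C1qa, from 4.79 (without EPZ5676 replicate 2) to 6.32 for C1qb, and from 5.20 (without EPZ5676 replicate 2) to 7.26 for C1qc. With MI-2-2, C1qa ran from 4.55 to 5.53, C1qb from 5.08 to 6.25 and C1qc from 6.33 to 7.28, each lowest without DMSO replicate 2. The call of C1qb with MI-2-2 missed the threshold when only the 4 libraries of its comparison entered the fit (adjusted p = 0.0503, edgeR).

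The chains took similar shares of the C1q reads in the groups with most reads. C1qb took 61.8% of 476 reads with EPZ5676, 59.6% of 681 with MI-2-2, 64.5% of 138 with MM-401 and 65.9% of 85 with iBET. C1qc took 22.3%, 26.1%, 19.6% and 9.41% in the same order. Per length (CPM per kilobase of exon, RPKM), C1qb was at 6.41 and 7.24 with EPZ5676 and MI-2-2, above C1qa at 1.74 and 1.82 and C1qc at 1.30 and 1.80. The C1q protein holds equal numbers of the chains, and lengths here came from a newer annotation than the one used for counting.

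**Figure D3:**
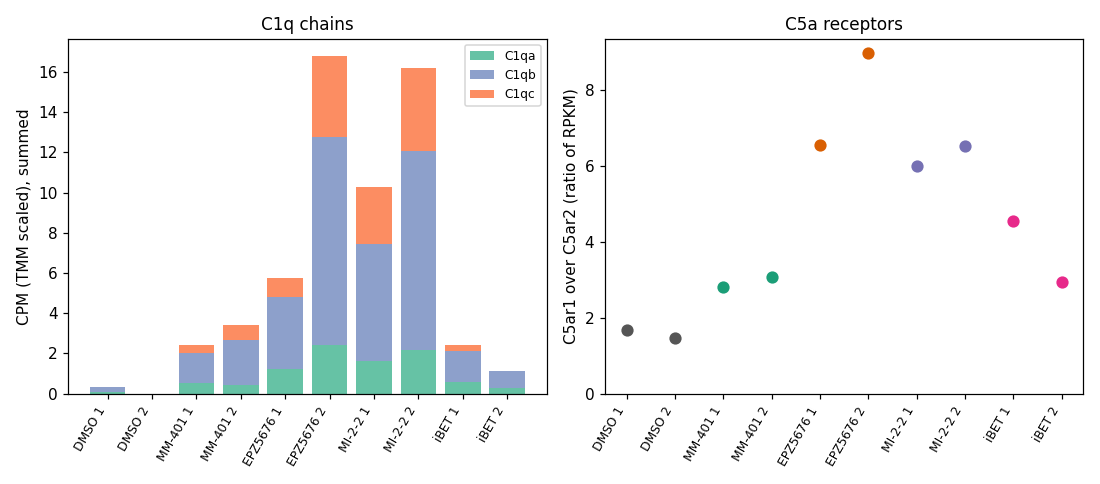
Left, TMM-scaled CPM of the C1q chains stacked for each library (y axis from 0), highest in EPZ5676 replicate 2 at 16.8 and MI-2-2 replicate 2 at 16.2. Right, the ratio of C5ar1 to C5ar2 RPKM in each library (y axis from 0), 1.48 and 1.67 in DMSO and 5.99 to 8.96 with EPZ5676 and MI-2-2.

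C3, the component that all pathways cleave, had by far the most reads of the 9 genes in every library. It was at 539 and 892 CPM in DMSO, 721 and 926 with MM-401, 1944 and 2164 with EPZ5676, 1484 and 1508 with MI-2-2, and 546 and 399 with iBET. The EPZ5676 and MI-2-2 libraries were all above the other 6, while DMSO, MM-401 and iBET overlapped in part. Against DMSO, C3 had a log2 fold change of 1.52 with EPZ5676 (standard error 0.27, adjusted p = 0.00428, edgeR), or 2.87-fold, a call lost when only the 4 libraries of its comparison entered the fit (adjusted p = 0.0532, edgeR). With MI-2-2 it was 1.06 (standard error 0.27, adjusted p = 0.0151, edgeR), or 2.09-fold. The MI-2-2 call of C3 was lost without either MI-2-2 library (adjusted p = 0.0534 and 0.0643, edgeR). Per length, C3 was at 139 RPKM in DMSO and 399 with EPZ5676, above all the other 8 genes in each group mean.

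C3ar1, the receptor for C3a, was below 1 CPM in DMSO and above 18 CPM with EPZ5676 and MI-2-2. It was at 0.78 and 0.77 CPM in DMSO, 2.32 and 1.89 with MM-401, 22.7 and 29.7 with EPZ5676, 18.2 and 44.4 with MI-2-2, and 0.31 and 0.46 with iBET. The DMSO libraries, from 20 and 16 reads, were close to each other for this gene, and the MI-2-2 libraries were 2.43-fold apart. C3ar1 rose by 5.07 on the log2 scale with EPZ5676 (standard error 0.48, adjusted p = 0.000597, edgeR) and 5.33 with MI-2-2 (standard error 0.48, adjusted p = 0.000533, edgeR). Left-out libraries moved the MI-2-2 value of C3ar1 most, to 4.56 without MI-2-2 replicate 2 and 5.84 without MI-2-2 replicate 1.

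C5ar1, the receptor for C5a, rose most among the 9 genes in absolute level apart from C3. It was at 6.23 and 3.07 CPM in DMSO, 13.2 and 17.3 with MM-401, 190 and 285 with EPZ5676, 191 and 251 with MI-2-2, and 5.08 and 1.38 with iBET. EPZ5676 and MI-2-2 libraries lay far above all others, and the MM-401 libraries lay between them and DMSO. C5ar1 rose by 5.66 on the log2 scale with EPZ5676 (standard error 0.60, adjusted p = 0.000767, edgeR), or 50.6-fold, and 5.56 with MI-2-2 (standard error 0.60, adjusted p = 0.000752, edgeR), or 47.1-fold. C3ar1 and C5ar1 kept these calls under each alternative run, with the highest adjusted p at 0.0338 for C3ar1 and 0.0313 for C5ar1 (edgeR). Leaving out DMSO replicate 2 gave C5ar1 5.27 with EPZ5676 and 5.18 with MI-2-2, and leaving out DMSO replicate 1 gave 6.28 and 6.17.

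C5ar2, the second C5a receptor, which does not couple to G proteins, rose with both inhibitors too, with smaller log2 fold changes. It was at 5.18 and 2.88 CPM in DMSO, 40.4 and 44.0 with EPZ5676, and 44.1 and 53.3 with MI-2-2. The ratio of C5ar1 to C5ar2 per length was 1.67 and 1.48 in DMSO, 2.82 and 3.08 with MM-401, 6.54 and 8.96 with EPZ5676, 5.99 and 6.53 with MI-2-2, and 4.55 and 2.93 with iBET. All 8 inhibitor libraries were above both DMSO libraries in this ratio. The ratio was not tested.

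Properdin, encoded by Cfp and the only known positive regulator of the alternative pathway convertase, moved less than the receptors. It was at 148 and 116 CPM in DMSO, 220 and 246 with MM-401, 189 and 267 with EPZ5676, 285 and 362 with MI-2-2, and 115 and 174 with iBET. All MM-401, EPZ5676 and MI-2-2 libraries were above both DMSO libraries, and iBET overlapped with DMSO. Cfp rose by 1.29 on the log2 scale with MI-2-2 (standard error 0.26, adjusted p = 0.00602, edgeR) and 0.79 with EPZ5676 (standard error 0.25, adjusted p = 0.0415, edgeR). The EPZ5676 call of Cfp was lost without DMSO replicate 2 (log2 fold change 0.64, adjusted p = 0.119, edgeR), without EPZ5676 replicate 2 (0.52, adjusted p = 0.231, edgeR) and with scaling by total counts (0.60, adjusted p = 0.0762, edgeR). The MI-2-2 call of Cfp held with total-count scaling and without any 1 of the DMSO and MI-2-2 libraries.

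Cfb, the protease of the alternative pathway convertase, had the flattest profile. It was at 2.61 and 4.89 CPM in DMSO, 3.89 and 2.77 with MM-401, 4.32 and 3.62 with EPZ5676, 3.03 and 3.07 with MI-2-2, and 3.09 and 2.56 with iBET, and every inhibitor group lay within or overlapped the DMSO range. The log2 fold change was 0.09 with EPZ5676 (95% interval -0.75 to 0.92) and -0.29 with MI-2-2 (-1.13 to 0.54), from edgeR's fit. Its sign changed when a DMSO library was left out, with both inhibitors.

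Cd55, which protects cells from their own complement, rested on few reads in the controls, and these disagreed. It had 67 and 2 reads in the DMSO libraries (2.61 and 0.10 CPM), 30 and 36 with MM-401 (1.27 and 1.51 CPM), 207 and 216 with EPZ5676 (10.0 and 10.2 CPM), 208 and 266 with MI-2-2 (9.02 and 9.71 CPM), and 17 and 9 with iBET (0.75 and 0.34 CPM). EPZ5676 and MI-2-2 libraries were above all others and close to each other, while DMSO ran from below the iBET libraries to above the MM-401 libraries. Both rises of Cd55 were called, with a log2 fold change of 2.87 with EPZ5676 (standard error 0.94, adjusted p = 0.0446, edgeR) and 2.76 with MI-2-2 (standard error 0.94, adjusted p = 0.0464, edgeR). Leaving out DMSO replicate 2 brought the log2 fold change of Cd55 to 1.98 and 1.88, leaving out DMSO replicate 1 brought it to 6.64 and 6.54, and the calls held in each case. They were lost without either library of the inhibitor, with adjusted p of 0.116 and 0.126 (EPZ5676) or 0.113 and 0.134 (MI-2-2), from edgeR, and with total-count scaling (0.0543 and 0.0583, edgeR).

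**Figure D4:**
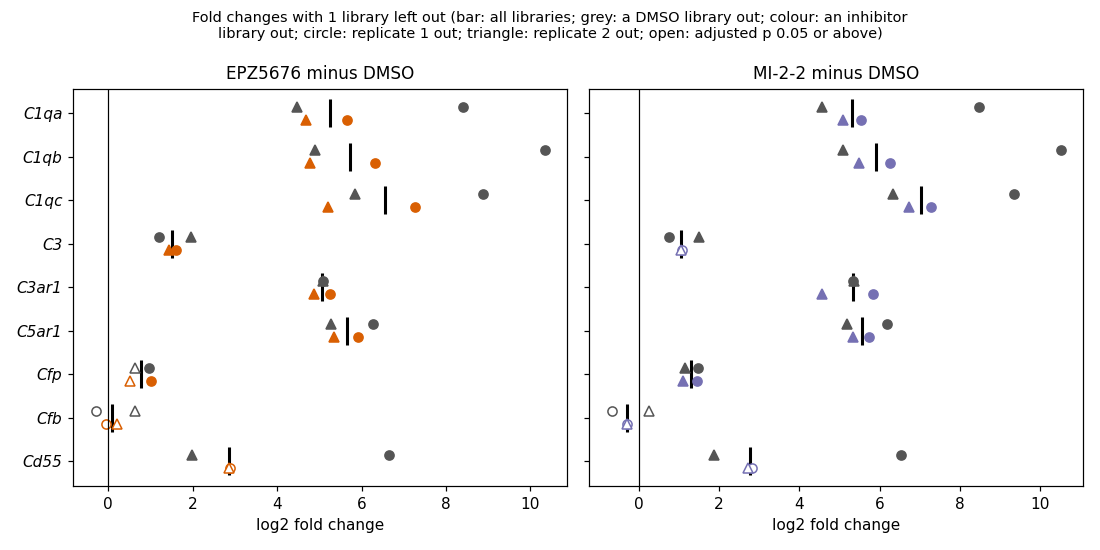
Log2 fold changes of the 9 genes for EPZ5676 and MI-2-2 minus DMSO (x axes) with all libraries (black bars) and with 1 library left out (symbols, open where the adjusted p was 0.05 or above). The C1q chains, C3ar1 and C5ar1 have only filled symbols, at 4.47 or above, and Cd55 runs from 1.88 to 6.64.

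EPZ5676 and MI-2-2 act on different proteins, and their groups were compared directly. None of the 9 genes was called between them, where edgeR called 0.0154% of all genes (937 of 12971 had an unadjusted p below 0.05, none of them among the 9), DESeq2 called none of the 9 and 1.09% of all genes, and the smallest adjusted p among the 9 genes was 0.762. The log2 difference, EPZ5676 minus MI-2-2, was 0.10 for C5ar1 (95% interval -0.997 to 1.21), -0.26 for C3ar1 (-1.14 to 0.62), 0.46 for C3 (-0.15 to 1.07) and -0.51 for Cfp (-1.09 to 0.08). The intervals were wider for C1qb (-1.81 to 1.46) and Cd55 (-1.87 to 2.09). The sign for C3ar1, C5ar1 and the C1q chains changed when 1 library was left out, as for C3ar1, at 0.52 without MI-2-2 replicate 2 and -0.76 without MI-2-2 replicate 1. The libraries of the 2 groups did not overlap for 4 of the 9 genes, beside 39.4% of all genes. EPZ5676 was above MI-2-2 for C3, Cfb and Cd55, and below it for Cfp.

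MM-401 gave no call among the 9 genes or among all genes tested (0%). Without adjustment, p was below 0.05 for 1450 of the 12971 genes and for 6 of the 9, namely C1qa, C1qb, C1qc, C3ar1, C5ar1 and Cfp, and DESeq2 called 2 of the 9, beside 2.34% of all genes. By a rule of a 2-fold difference in mean CPM, 3 of the 9 passed, beside 6.44% of all genes. In these 6 genes both MM-401 libraries were above both DMSO libraries, which was so in either direction for 37.3% of all genes. With MM-401, log2 fold changes were 1.44 for C3ar1 (standard error 0.46, adjusted p = 0.336, edgeR), 1.70 for C5ar1 (standard error 0.53, adjusted p = 0.333, edgeR) and 0.82 for Cfp (standard error 0.25, adjusted p = 0.333, edgeR). That of C5ar1 ran from 1.27 to 2.31 with 1 library left out. Without DMSO replicate 1, edgeR called 3 of the 9 genes with MM-401, C1qa, C1qb and Cd55, in a fit where the remaining control had no C1q read and 2 Cd55 reads and 10.2% of all genes (1368 of 13355) were called. Without DMSO replicate 2 it called 0 of the 9 and 0 of 13242.

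EPZ5676 and MI-2-2 were also set against MM-401, a comparison that does not use the DMSO libraries in its contrast. With EPZ5676, 5 of the 9 genes were higher than with MM-401, where edgeR called 33.3% of all genes in either direction and 16.7% as higher, and with MI-2-2 5 were higher, beside 35.7% and 18%. C1qa, C3, C3ar1 and C5ar1 were in both counts, Cd55 in the first and C1qc in the second. With the replicate number as a block, 7 were higher with MI-2-2, with C1qb and Cd55 added, beside 46% of all genes in either direction. C5ar1 was 15.6-fold higher with EPZ5676 (adjusted p = 0.00226, edgeR) and 14.5-fold higher with MI-2-2 (adjusted p = 0.00233, edgeR), and C3ar1 was 12.4-fold and 14.8-fold higher (adjusted p = 0.00146 and 0.00135, edgeR). These receptor calls held with any 1 library left out. With any 1 library left out, they were the only 2 called for MI-2-2 against MM-401, and for EPZ5676 C3 was kept as well except without MM-401 replicate 1. In these fits edgeR called 12.9% to 19.5% of all genes for MI-2-2 and 11.6% to 19.6% for EPZ5676. Without MI-2-2 replicate 2 the log2 difference of C3ar1 between MI-2-2 and MM-401 was 3.11, beside 3.89 with all libraries.

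With iBET none of the 9 genes was called against DMSO, beside 13.9% of all genes. For iBET, 4178 of the 12971 genes had an unadjusted p below 0.05, among them C1qa and C1qb of the 9. DESeq2 called those 2, beside 20.6% of all genes. With the replicate number as a block, C1qa was called with iBET (adjusted p = 0.0478, edgeR), beside 23.8% of all genes. By the 2-fold rule 2 of the 9 passed with iBET, beside 14.9%. The log2 fold change was 3.22 for C1qa (adjusted p = 0.0503, edgeR) and 3.17 for C1qb (adjusted p = 0.0693, edgeR), from 21 and 56 reads with iBET, and without DMSO replicate 2 it was 2.41 and 2.29. With 2 C1qa reads in DMSO, the ratio of 10.0 for C1qa had an exact 95% interval of 2.45 to 88.2 for counting error. It was -0.60 for C3 (adjusted p = 0.162, edgeR), -0.99 for C3ar1 (adjusted p = 0.247, edgeR), -0.56 for C5ar1 (adjusted p = 0.533, edgeR) and 0.13 for Cfp (adjusted p = 0.761, edgeR). Cd55 turned on the control library, with a log2 fold change of -1.34 (adjusted p = 0.390, edgeR) that was -2.26 without DMSO replicate 2 (adjusted p = 0.00983, edgeR) and 2.43 without DMSO replicate 1 (adjusted p = 0.0387, edgeR). Without DMSO replicate 1, edgeR also called C1qa (adjusted p = 0.0263) and C1qb (adjusted p = 0.0307) as higher with iBET, against a control with no C1q read, and C3 as lower (log2 fold change -0.91, adjusted p = 0.0199). That made 4 of the 9 genes, beside 27.9% of all genes (3720 of 13355). Without DMSO replicate 2, Cd55 was the 1 gene called of the 9, beside 21.6% of all genes. C5ar1 with iBET, called in neither case, was 0.05 without DMSO replicate 1 and -0.97 without DMSO replicate 2, and Cfp was 0.33 and -0.04. Leaving out an iBET library moved C5ar1 further, to -1.76 without iBET replicate 1 and 0.12 without iBET replicate 2, again not called. Against MM-401, 2 of the 9 genes were lower with iBET, beside 11.4% of all genes in either direction and 5.96% as lower. These were C3ar1 at 5.38-fold lower (adjusted p = 0.0222, edgeR) and C5ar1 at 4.78-fold lower (adjusted p = 0.0388, edgeR). The log2 difference of C5ar1, -2.26 with all libraries, ran from -3.46 to -1.58 with 1 library left out. C3ar1 lost this call without any 1 of the 4 libraries, and C5ar1 kept it only without iBET replicate 1 (log2 difference -3.46), while these fits called 1.37% to 2.05% of all genes.

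Ordered by group mean, C5ar1 was highest with EPZ5676 (238 CPM), then MI-2-2 (221), MM-401 (15.2), DMSO (4.65) and iBET (3.23). Of these neighbours only MI-2-2 and MM-401 differed by the test. C3ar1 had the order MI-2-2 (31.3 CPM), EPZ5676 (26.2), MM-401 (2.11), DMSO (0.77) and iBET (0.38), and again only EPZ5676 and MM-401 differed among neighbours. C3 had the order EPZ5676 (2054 CPM), MI-2-2 (1496), MM-401 (823), DMSO (716) and iBET (472), where the only neighbours to differ were MI-2-2 and MM-401. The C1q chains were highest with MI-2-2 and lowest with DMSO, with MM-401 above iBET in the mean of each. No chain differed between MM-401 and iBET by the test. For C1qa the order of these groups turned without MM-401 replicate 1 and without iBET replicate 2.

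Other genes of the pathway were taken as a list of 40, all present in the table. Of these, 19 had enough reads to be tested, and 10 had no read in any library, among them the lectins Mbl1 and Mbl2, the terminal components C7, C8a, C8b and C9, and the C1 inhibitor gene Serping1. With EPZ5676, 6 of the 19 rose and 3 fell, and with MI-2-2 6 rose and 3 fell, beside the 38.1% and 41.4% of all genes called. Without DMSO replicate 1, 9 rose with EPZ5676 and 10 with MI-2-2, in fits that called 51% and 53.9% of all genes, and without either EPZ5676 library 5 rose and 1 fell, beside 25.5% and 19.7%. The median log2 fold change of the 19 was 0.30 and 0.51. Of the 6 receptors and C1q-binding proteins tested, 4 (C5ar2, Itgam, Itgax and Itgb2) were called higher and 1 (C1qbp) lower with each of these inhibitors, and of the 5 regulators tested none was called.

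**Figure D5:**
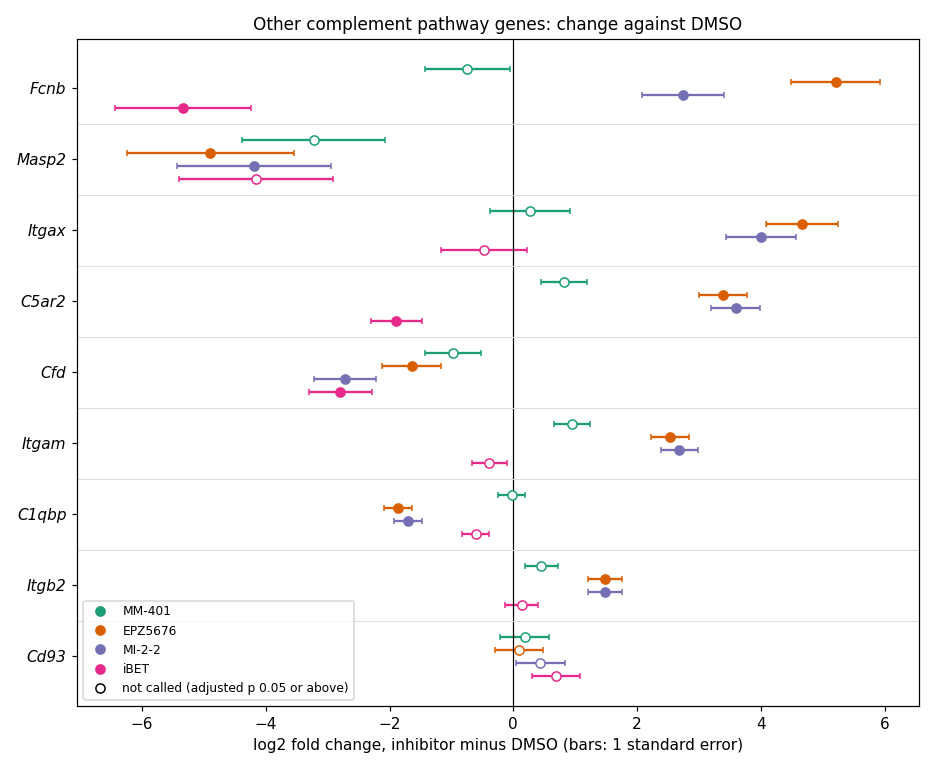
Log2 fold change (x axis) of 9 other complement genes for each inhibitor minus DMSO, with bars of 1 standard error and open circles where the adjusted p was 0.05 or above. Fcnb, Itgax, C5ar2, Itgam and Itgb2 lie to the right of 0 with EPZ5676 and MI-2-2, and Masp2, Cfd and C1qbp to the left.

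The subunits of complement receptors 3 and 4 rose with both inhibitors. Itgam, the alpha chain of receptor 3, was at 481 and 279 CPM in DMSO, 1862 and 2532 with EPZ5676, and 2149 and 2728 with MI-2-2, with log2 fold changes of 2.53 and 2.68 (adjusted p = 0.00111 and 0.000876, edgeR). Itgb2, the beta chain that both receptors share, rose by 1.47 and 1.49 on the log2 scale (adjusted p = 0.00518 and 0.00466, edgeR). Itgax, the alpha chain of receptor 4, rose from 3 and 5 reads in DMSO to 93 and 97 with EPZ5676 and 43 and 106 with MI-2-2. Its log2 fold changes were 4.66 and 4.00 (adjusted p = 0.0012 and 0.00177, edgeR), the latter 3.38 without MI-2-2 replicate 2 and 4.59 without DMSO replicate 2, called in both. C5ar2 rose by 3.38 and 3.59 (adjusted p = 0.000926 and 0.000774, edgeR). Cd93, a surface protein once taken for a C1q receptor, was at 457 and 207 CPM in DMSO, with means of 353 with EPZ5676 and 450 with MI-2-2, and was not called. Without DMSO replicate 1 it was called with MI-2-2 (adjusted p = 0.0285, edgeR), and with EPZ5676 its log2 fold change was 0.77 without DMSO replicate 1 and -0.35 without DMSO replicate 2, not called in either.

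Fcnb, the ficolin of myeloid cells, which recognises sugars for the lectin pathway, was at 1.09 and 6.09 CPM in DMSO, 129 and 132 with EPZ5676, 24.6 and 22.5 with MI-2-2, and 0.18 and 0 with iBET. It rose with EPZ5676 (36.9-fold, adjusted p = 0.0017, edgeR) and MI-2-2 (6.67-fold, adjusted p = 0.013, edgeR) and fell with iBET (log2 fold change -5.33, adjusted p = 0.0198, edgeR). The log2 fold change of Fcnb ran from 4.42 to 6.92 with EPZ5676 and from 1.96 to 4.46 with MI-2-2, without DMSO replicate 1 and without DMSO replicate 2, and all these were called. Both EPZ5676 libraries were above both MI-2-2 libraries, but the log2 difference of 2.47 was not called (95% interval 1.03 to 3.91, unadjusted p = 0.00426, adjusted p = 0.364, edgeR). The iBET call of Fcnb was lost without either iBET library, and its log2 fold change was -3.65 without DMSO replicate 2. C1ra, a protease of the C1 complex, is named after its values were seen, as the sixth gene to rise, from 5 and 1 reads in DMSO to 22 and 16 with EPZ5676 and 25 and 23 with MI-2-2.

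Of the genes that fell, C1qbp, a mostly mitochondrial protein that binds C1q, was at 169 and 265 CPM in DMSO, 60.9 and 58.4 with EPZ5676, and 61.7 and 71.2 with MI-2-2. Its log2 fold changes were -1.86 and -1.71 (adjusted p = 0.00117 and 0.00136, edgeR). Cfd, the protease that activates factor B, fell from 40 and 77 reads in DMSO to 17 and 18 with EPZ5676 (log2 fold change -1.64, adjusted p = 0.0287, edgeR) and 8 and 12 with MI-2-2 (-2.71, or -1.93 without DMSO replicate 2 with the call kept, adjusted p = 0.00472 with all libraries, edgeR). The EPZ5676 value of Cfd was -0.87 without DMSO replicate 2 (adjusted p = 0.125, edgeR), and this call was also lost without either EPZ5676 library. Masp2, a protease of the lectin pathway, had 7 and 120 reads in DMSO and 2 and 2 with EPZ5676, and its log2 fold change of -4.89 was -1.44 without DMSO replicate 2 (adjusted p = 0.185, edgeR). With MI-2-2, at 4 and 4 reads, -4.19 became -0.73 (adjusted p = 0.445, edgeR). Both calls of Masp2 were also lost without either library of the inhibitor, and were kept only without DMSO replicate 1. With iBET 4 of the 19 fell, beside 13.9% of all genes called and 7.54% called lower, namely Fcnb, Cfd, C5ar2 and C4b, the last named after its values were seen. Fewer of the 19 were called when either iBET library was left out, and more when either DMSO library was left out. Without DMSO replicate 1, some of those called were higher with iBET. With only the iBET and DMSO libraries in the fit 0 were called, as over all 12062 genes tested. With MM-401 none was called.

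With EPZ5676 and MI-2-2, the neutrophil granule and macrophage marker lists were higher beside the complement genes. A list of 6 neutrophil granule genes in the table summed to 254 and 857 CPM at the lowest and highest DMSO library, 1225 to 1455 with MM-401, 20402 to 25777 with EPZ5676, 19244 to 19318 with MI-2-2, and 113 to 239 with iBET. All 6 rose with EPZ5676 and with MI-2-2, beside 18.7% and 20.2% of all genes called higher. With iBET 2 of them fell, beside 7.54% of all genes called lower. A list of 8 macrophage genes summed to 307 to 353 CPM in DMSO, 714 to 715 with MM-401, 3847 to 5769 with EPZ5676, 2927 to 4472 with MI-2-2 and 1084 to 1235 with iBET, and 7 of the 8 rose with EPZ5676 and 7 with MI-2-2. With iBET 2 of the 8 rose, beside 828 of the 12971 genes tested called higher. None of the 9 complement genes was called with iBET, and 4 of the other pathway genes were called lower. Most of the macrophage sum was Lyz2, which neutrophils also express, at 3561 and 5388 CPM with EPZ5676 and 1022 and 1147 with iBET. Of its members, Mrc1 was at 75.0 and 142 CPM with EPZ5676 against 1.67 and 1.05 in DMSO, while Cx3cr1 stayed at 0.76 CPM or below in every library. Of 6 progenitor genes, 3 fell and 1 rose with EPZ5676, and the same counts held with MI-2-2. Over all genes, edgeR called 38.1% (EPZ5676) and 41.4% (MI-2-2) in either direction. Meis1 went from 36.4 and 89.9 CPM in DMSO to between 0.65 and 1.79 with EPZ5676 and MI-2-2. Ptprc, a gene of all leukocytes, was at 380 CPM or above in every library, and Hoxa9 at 277 CPM or above.

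Among lists of other cells, Ms4a1, Pax5, Cd3e, Hba-a1, Hbb-b1, Fcer1a, Tpsb2 and Col3a1 had no read in any library. Of the T cell list 2 genes were tested, and with EPZ5676 and MI-2-2 Cd3d rose and Lck fell. Cd3d was at 0.12 and 0.048 CPM in DMSO, 1.26 and 1.46 with EPZ5676 and 0.82 and 2.01 with MI-2-2. The B cell list summed to at most 1.17 CPM, the T cell list to at most 4.98 (in DMSO), the erythroid list to at most 1.17 and the mast cell and basophil list to at most 14.5, the last mainly from Mcpt8. Mcpt8 was called lower with EPZ5676, at 3.39 and 3.91 CPM, and with MI-2-2, at 5.03 and 5.22, against 8.72 and 9.97 in DMSO. Of the stroma and endothelium list only Col1a1 was above 1 CPM, at up to 18.9 CPM with EPZ5676 against 0.27 and 0.29 in DMSO, and it was called higher with EPZ5676 and with MI-2-2. The part of these marker changes in the complement results was not tested, and in bulk RNA a change in the number of cells of a type and a change in RNA per cell cannot be told apart.

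As a description over the 10 libraries, which share groups and controls, the log2 CPM of the complement genes moved together to different degrees. Pearson's r was 0.99 for C1qa with C1qb and 0.97 for C3ar1 with C5ar1, and 0.61 for C3 with Cfp. With Cfb it lay between -0.21 and 0.45. Among the genes averaging 5 CPM or more, those most like C5ar1 were Arap3 and Mbp (both r = 0.99), one of those most like C3ar1 was Glyctk (0.99), and those most like C3 were Tnrc6b (0.99) and Ets1 (0.98). For the C1q chains they were D17H6S53E and Plekho2 (C1qa), Mob3c and Esrra (C1qb) and Il18bp and Fgd3 (C1qc), each at 0.98. For Cfp they were Rab32 (0.97) and Sh2d1b1 (0.96), for Cd55 Samd10 and Tinagl1 (both 0.99), and for Cfb Brwd3 (0.90) and Tmem79 (0.86).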

How the data were processed

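RNA of MAF9 cells was sequenced in 5 groups of 2 libraries, grouped by their titles. The authors deposited read counts per gene without normalization, as whole numbers. The submitters' processing notes name TopHat2, Subread, DESeq and the build mm9, with no roles or versions, and how strand and shared reads were treated is not given in the sources used here. Gene symbols were matched as listed. Counts were tested with the quasi-likelihood functions of edgeR 4.0.16 under R 4.3.3, after filterByExpr (12971 genes kept) and TMM scaling. A single model held all 10 libraries, and p-values were adjusted by Benjamini-Hochberg over every gene tested in a comparison. Intervals of log2 fold changes are 95% intervals from the standard error and the fit's degrees of freedom. The fit was tested on simulated data. RPKM used exon lengths of GENCODE M21, and no coordinates of that annotation were used with the counts.

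The 9 genes, the 40 other pathway genes and the marker lists were chosen with earlier results of these data known. Of the pathway list, up to 8 called genes with the largest change for EPZ5676 or MI-2-2 and at least 1 CPM in either group, and the 4 with the highest level, are named. For likeness, the 2 genes with the highest Pearson r per complement gene are named, except a gene that is not reported here. Alternatives were total-count scaling, DESeq2 1.42.0, no low-count filter, at least 1 CPM in at least 2 libraries, a replicate block, only the libraries of the compared groups, a 2-fold rule on mean CPM (0.1 CPM added, at least 1 CPM), and leaving out each library. Total-count scaling moved the median log2 fold change of all genes from -0.06 to -0.23 for EPZ5676 and from -0.05 to -0.20 for MI-2-2 against DMSO, and from 0.01 to -0.14 and to -0.11 against MM-401. No library was a copy of another, since any 2 differed in at least 14315 genes. Depth of 20394762 to 29473127 reads makes 1 read 0.034 to 0.049 CPM.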

Additional observations from a re-analysis of the deposited data

How the results depend on the processing

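For C1qa, C1qc, C3ar1 and C5ar1 the direction and the call against DMSO held for EPZ5676 and MI-2-2 in all 10 alternatives, and for C1qb in 10 and 9 of them. With only the libraries of the 2 groups compared in the fit, 5 complement genes instead of 8 were called for EPZ5676 against DMSO. For MI-2-2 against DMSO the count was also 5 instead of 8. Against MM-401 the counts rose, to 8 instead of 5 for MI-2-2 and 4 instead of 2 for iBET. Of the other pathway genes, 5 (EPZ5676), 4 (MI-2-2) and 0 (iBET) were called against DMSO. The calls lost were C3, Cfp and Cd55 for EPZ5676 and C1qb, C3 and Cd55 for MI-2-2. In these fits the share of all genes called was 9.34% (EPZ5676), 9.12% (MI-2-2) and 0% (iBET) against DMSO, and 51.4% (MI-2-2) and 35% (iBET) against MM-401. With total-count scaling 3 complement genes were called for EPZ5676 against MM-401, beside 37.7% of all genes. DESeq2 called 2 complement genes for iBET and 2 for MM-401 against DMSO, 4 for iBET against MM-401 (beside 17.7% of all genes), and 1 other pathway gene for MM-401 against DMSO. The 2-fold rule took 2 complement genes for iBET, 3 for MM-401 and 1 other pathway gene for MM-401. Causes of these shifts were not tested.

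With 1 library left out, the called complement genes numbered 2 to 3 for EPZ5676, 2 for MI-2-2 and 0 to 1 for iBET against MM-401 (all genes 11.6% to 19.6%, 12.9% to 19.5% and 1.37% to 2.05%), and against DMSO 0 to 4 for iBET and 0 to 3 for MM-401. Against DMSO the other pathway genes called were 1 to 10 for iBET and 0 to 7 for MM-401. Over all genes, edgeR then called from 150 of 13393 to 3720 of 13355 (27.9%) for iBET and 0% to 10.2% for MM-401 against DMSO. Without DMSO replicate 1 iBET had its highest counts, 4 complement genes and 10 other pathway genes. Cd55 with iBET reversed, from -1.34 to 2.43 without that library, and was -2.26 without the other control. Over all settings, 70 values of single genes lost a call, 40 gained one and a further 45, called in neither setting, changed sign.

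Samples with the same replicate number deviated together (correlations 0.28 to 0.67), and the labels do not say what samples of a number share. With the replicate number as a block, EPZ5676 and MI-2-2 had 8 called complement genes each and iBET 1 (C1qa, adjusted p = 0.0478, edgeR) against DMSO. MI-2-2 against MM-401 went from 5 to 7, adding C1qb (adjusted p = 0.0431, edgeR) and Cd55 (adjusted p = 0.0318, edgeR), and the other pathway genes called for iBET from 4 to 6, adding C1qbp (adjusted p = 0.0403, edgeR) and Masp2 (adjusted p = 0.0446, edgeR). Under the block edgeR called 47.6% (EPZ5676), 50.6% (MI-2-2) and 23.8% (iBET) of all genes against DMSO, and 46% for MI-2-2 against MM-401. The block changed no other call of the complement genes, nor of the named pathway genes against DMSO, the only comparisons where it was run for them.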
